A study of Mus musculus with 11 samples.

Results

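Cornified envelope and epidermal differentiation genes were measured in 11 RNA-seq libraries of mouse mammary epithelial cells, as 36 of the 27179 genes counted in each library. The 36 genes were taken from a list of symbols of known epidermal genes, and every symbol matched a counted gene. The list was selected on measured values, since the levels in the Mammosphere, LP and ML libraries were known when it was drawn up. Those levels are therefore given as a description, and the number of listed genes that were high there supports nothing. By known role the genes fall into spinous layer genes (8), envelope scaffold and crosslinking genes (5), granular layer genes (8), kallikrein proteases with their inhibitor (9) and stress-type small proline-rich protein (SPRR) genes (6).

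The libraries came from wild-type FVB/N virgin females, given as 8 weeks old, apart from the cell line. Sorted cells were stem cell-enriched basal cells (MaSC/basal, CD24+CD29hi), luminal progenitor-enriched cells (LP, CD24+CD29loCD61+) and mature luminal-enriched cells (ML, CD24+CD29loCD61-), with 3 libraries each. The Mammosphere library (1) was made from MaSC/basal cells grown for 7 days without attachment, and the Comma D beta library (1) from CommaD-βGeo, an established mammary line of Balb/c mid-pregnancy origin. The gates enrich rather than purify, the MaSC/basal gate also holds myoepithelial cells, and nothing in the labels says that libraries of a population came from separate animals, so p-values measure the spread between these libraries. The submitted name of MaSC/basal replicate 1 contains p53 although its label is wild type, and that of the Mammosphere library joins a pair of identifiers, so it may hold more than 1 culture.

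Between 19958838 and 75795034 reads were counted per library, and values are CPM, read counts scaled to the TMM-adjusted library size, in which 3 reads correspond to 0.0399 to 0.160 CPM. Libraries were made in 3 batches: batch 1 with replicate 1 of each population and the Mammosphere library, batch 2 with MaSC/basal replicates 2 and 3 and replicate 2 of LP and ML, and batch 3 with LP and ML replicate 3 and Comma D beta. By the labels, batch 1 was prepared with the TruSeq RNA kit and the others with its v2 version, while the study's methods name the v2 kit, so the Mammosphere library may share its kit version with MaSC/basal replicate 1 and not with replicates 2 and 3, and the part of the kit was not tested. Defining markers followed the labels of the sorted cells, since 6 basal and myoepithelial genes summed to 15877 to 22237 CPM in MaSC/basal libraries, against 55.5 to 201 in LP and 61.1 to 353 in ML libraries. Summed levels of 10 luminal genes were 1474 to 1758, 14459 to 17059 and 19507 to 21562 CPM. ML replicate 3 stood apart in some skin and hair keratins, and results that rest on it are given with and without it.

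In skin, keratinocytes leave the basal layer and pass through spinous and granular layers before they are shed. Spinous cells switch to the keratins *Krt1* and *Krt10* and strengthen their desmosomes. Granular cells then make filaggrin and loricrin, and transglutaminases crosslink these and other precursors onto a scaffold of involucrin, envoplakin and periplakin beneath the membrane, forming the cornified envelope. Kallikreins are secreted serine proteases that cut desmosomal proteins so that dead cells can be shed, and *Spink5* encodes their inhibitor LEKTI. SPRR proteins are envelope precursors that many epithelia also make under stress or injury. The mammary gland is an ectodermal appendage, but its normal ducts do not cornify.

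Many of the genes lie together in the genome. On chromosome 3, the SPRR genes, *Ivl*, *Lor*, *Flg* and *Rptn* (10 genes) lay within chr3:92080271-93399442, the epidermal differentiation complex. All 8 kallikrein genes lay within 170.3 kb on chromosome 7, at chr7:43680880-43851181, and *Sbsn*, *Dmkn* and *Krtdap* were neighbours at chr7:30732674-30791089 (GRCm38). A promoter window in the RefSeq table (GRCm38.p6), running from 250 bases before to 50 bases after the start of a transcript, was given for 29 of the 36 genes. The AP-1 motif TGANTCA, searched on both strands, was present in 12 of the 29 (41.4%), against 8.97% of all 27025 genes with a window. By locus, it was found for 9 of 10 genes of the complex, for *Sbsn*, *Dmkn* and *Krtdap* (3 of 3) and for 0 of 8 kallikrein genes. TATAAA was present in 44.8% (15.7% of all genes), again with 10 of 10 in the complex and 0 of 8 kallikreins. The grainyhead motif AACCNGTT was present in 6.9% (2.35% of all genes), in *Rptn* and *Sfn*, and the CACCC motif CCACNCCC in 17.2% (19.7%). Neighbouring *Sprr2* genes are close copies, so their windows are not independent.

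The windows of *Sprr1a* (chr3:92485832-92486131, minus strand), *Sbsn* (chr7:30751221-30751520, plus strand), *Krtdap* (chr7:30787655-30787954, plus strand) and the first window listed for *Klk6* (chr7:43824294-43824593, plus strand) are shown because these genes stood at some of the highest levels of their classes in the Mammosphere library and differ in these motifs. Sequences run 5′ to 3′ along the gene, with matches to the 4 motifs in capitals (AP-1 or TATAAA in these windows), and no matches overlap.
Sprr1a: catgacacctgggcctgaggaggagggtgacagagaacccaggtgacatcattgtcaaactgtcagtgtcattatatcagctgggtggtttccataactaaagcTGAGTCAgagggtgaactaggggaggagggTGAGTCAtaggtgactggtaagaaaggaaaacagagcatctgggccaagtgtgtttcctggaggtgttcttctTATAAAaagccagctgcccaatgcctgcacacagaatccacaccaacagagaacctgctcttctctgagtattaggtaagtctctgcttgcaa
Sbsn: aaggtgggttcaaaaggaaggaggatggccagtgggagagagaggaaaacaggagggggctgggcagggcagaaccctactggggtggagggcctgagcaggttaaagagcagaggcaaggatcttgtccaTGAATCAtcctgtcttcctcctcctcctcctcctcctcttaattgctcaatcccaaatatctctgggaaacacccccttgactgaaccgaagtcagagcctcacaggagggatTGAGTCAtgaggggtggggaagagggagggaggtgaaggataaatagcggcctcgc
Krtdap: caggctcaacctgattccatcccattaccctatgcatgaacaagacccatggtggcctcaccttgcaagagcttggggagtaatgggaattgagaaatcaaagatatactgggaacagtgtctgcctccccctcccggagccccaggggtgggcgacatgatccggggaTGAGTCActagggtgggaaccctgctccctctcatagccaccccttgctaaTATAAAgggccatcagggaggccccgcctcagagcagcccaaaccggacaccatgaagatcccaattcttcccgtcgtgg
Klk6: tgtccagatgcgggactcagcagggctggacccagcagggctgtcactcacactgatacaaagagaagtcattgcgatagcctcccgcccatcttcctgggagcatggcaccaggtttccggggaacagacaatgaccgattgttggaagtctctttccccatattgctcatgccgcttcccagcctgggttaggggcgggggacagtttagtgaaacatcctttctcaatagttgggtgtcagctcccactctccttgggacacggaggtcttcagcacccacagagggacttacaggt
*Sprr1a* and *Sbsn* each held a pair of AP-1 matches, *Krtdap* held 1 AP-1 match and 1 TATAAA, and the *Klk6* window held none of the 4 motifs. A match describes the letters only, and no match says only that these letters are not in the window.

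Summed over the 36 genes, levels were 2117 to 2617 CPM in MaSC/basal, 1188 to 1626 in LP, 1313 to 1767 in ML, 8126 in Mammosphere and 162 in Comma D beta. The classes made up these sums very unequally. *Sfn* alone accounted for most of the MaSC/basal sum, whereas kallikreins and *Spink5* gave 5391 of the Mammosphere sum and 1.71 to 5.29 CPM in MaSC/basal, 98.0 to 211 in LP, 47.7 to 165 in ML and 43.6 in Comma D beta. Granular layer genes summed to 1.53 to 2.90 CPM in MaSC/basal, 1.80 to 2.82 in LP, 3.12 to 14.96 in ML and 472 in Mammosphere. A mean over 0.5 CPM was reached by 14 genes in MaSC/basal cells, 18 in LP, 27 in ML (20 without ML replicate 3), 31 in Mammosphere and 17 in Comma D beta. In bulk RNA, fewer cells of a type and less RNA per cell cannot be told apart.

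**Figure D1:**
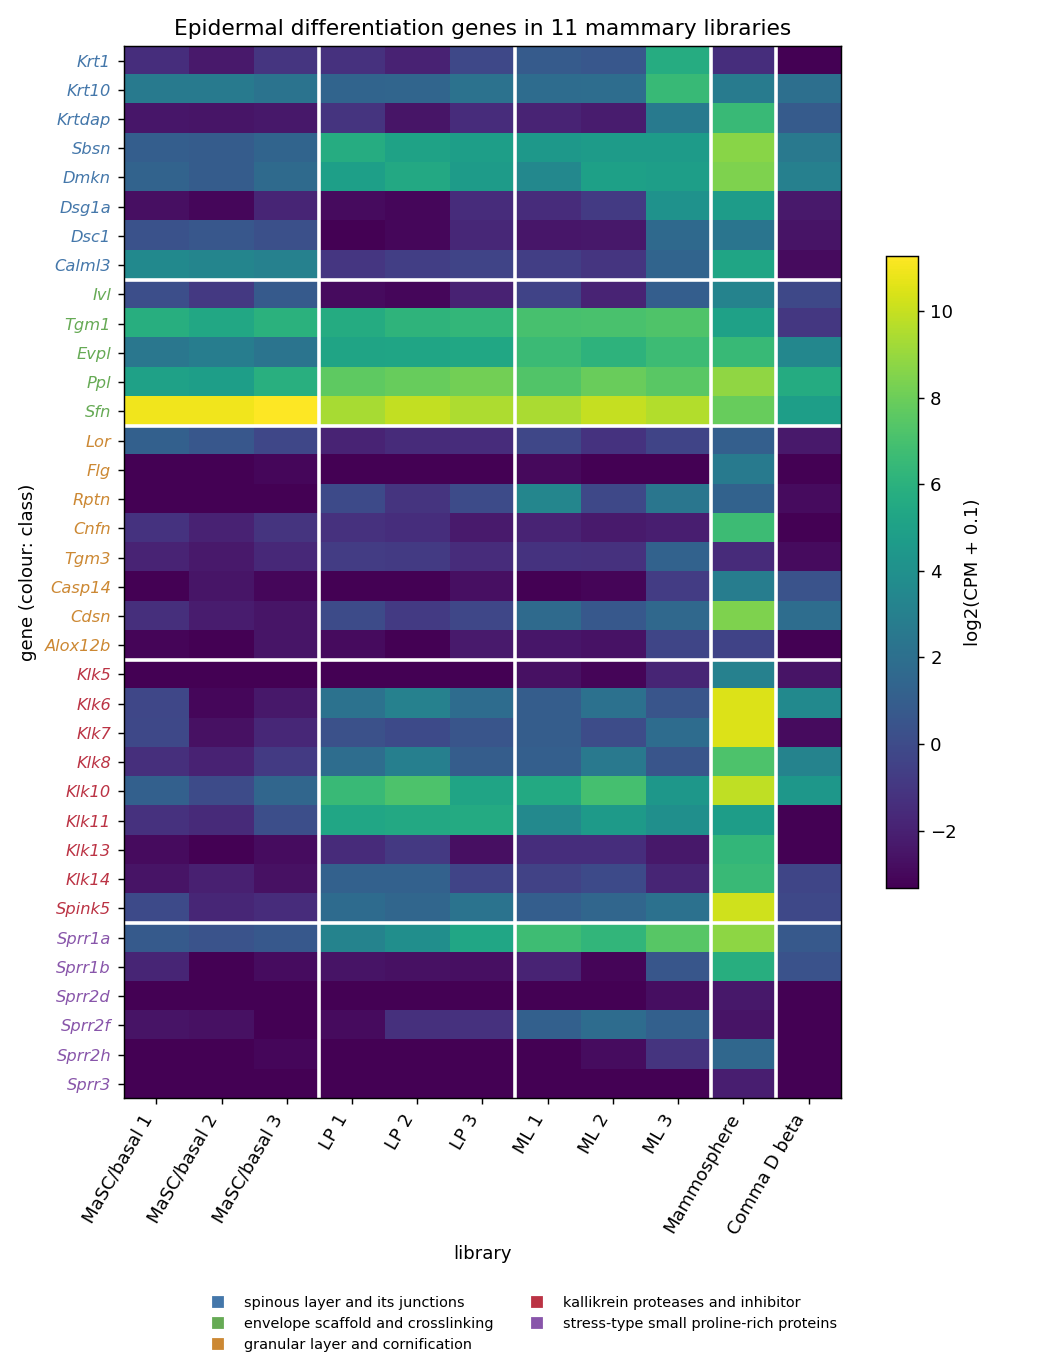
Level of each of the 36 genes (rows, named in the colour of their class) in each of the 11 libraries (columns), as log2(CPM + 0.1). The Mammosphere column is brightest in the *Klk6*, *Klk7*, *Klk10* and *Spink5* rows, *Sfn* is brightest in MaSC/basal, and ML replicate 3 is brighter than ML replicates 1 and 2 in *Krt1*, *Krt10* and *Dsg1a*.

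Sorted populations were compared with the edgeR quasi-likelihood test in a fit to the 15422 genes that passed a filter (more than 0.5 CPM in 3 or more libraries), and a gene was called at a Benjamini-Hochberg adjusted p under 0.05 over all of them. Of the 36 genes, 26 passed the filter. *Dsg1a*, *Flg*, *Cnfn*, *Tgm3*, *Alox12b*, *Klk5*, *Klk13*, *Sprr2d*, *Sprr2h* and *Sprr3* did not and were not tested. Between MaSC/basal and LP cells, 5 were higher in MaSC/basal (29.4% of all genes tested were), 14 were lower (28.0%) and 7 were not called, with a median log2 fold change of -2.14 (-0.008 over all genes). Against ML cells, 3 were higher in MaSC/basal (28.9%), 18 were lower (29.7%) and 5 were not called, with a median of -2.93 (-0.006). LP exceeded ML in 3 (14.3%) and was below it in 9 (17.5%), with 14 not called and a median of -1.136 (-0.014). The shares are read against these backgrounds only, because the genes were chosen with the luminal levels known. The count between LP and ML depended on single libraries, with 6 without LP replicate 1, 6 without LP replicate 2 and 5 without ML replicate 3 in place of 12.

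Among spinous layer genes, suprabasin (*Sbsn*) and dermokine (*Dmkn*), secreted proteins encoded by neighbouring genes, were the luminal ones. *Sbsn* stood at 1.97, 1.79 and 2.52 CPM in MaSC/basal, 52.1, 34.3 and 28.8 in LP, 22.1, 25.7 and 25.3 in ML, 406 in Mammosphere and 5.81 in Comma D beta. Every luminal library was above every MaSC/basal library, and the log2 fold changes of MaSC/basal were -4.20 against LP (SE 0.25, adjusted p = 7.23e-07) and -3.54 against ML (SE 0.24, adjusted p = 1.32e-06). LP was 1.58-fold above ML (log2 0.66, SE 0.21, adjusted p = 0.0403, and 0.0538 with the batch as a block), a call also lost without MaSC/basal replicate 1, LP replicate 1 or any 1 ML library (adjusted p up to 0.129). *Dmkn* stood at 2.36, 1.77 and 3.22 CPM in MaSC/basal, 29.6, 44.1 and 26.0 in LP, 10.9, 30.9 and 28.3 in ML, 349 in Mammosphere and 7.92 in Comma D beta. It was 13.6-fold lower in MaSC/basal than in LP (adjusted p = 3.35e-05) and 9.53-fold lower than in ML (adjusted p = 7.09e-05), while LP and ML overlapped.

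Calmodulin-like 3 (*Calml3*) and desmocollin 1 (*Dsc1*) went the other way. *Calml3*, a calcium-binding protein of stratified epithelia, stood at 11.8, 9.90 and 8.55 CPM in MaSC/basal, 0.388, 0.561 and 0.694 in LP, 0.565, 0.372 and 2.55 in ML, 38.2 in Mammosphere and 0.0340 in Comma D beta. It was 18.6-fold higher in MaSC/basal than in LP (log2 4.22, SE 0.64, adjusted p = 2.89e-04) and 9.58-fold higher than in ML (log2 3.26, SE 0.60, adjusted p = 9.10e-04), with no overlap, and without ML replicate 3 the difference from ML was 4.46. *Dsc1*, a desmosomal cadherin, ranged from 1.07 to 1.47 CPM in MaSC/basal libraries, with LP at 0 to 0.214 and ML at 0.0848 to 3.10, where the highest value was ML replicate 3. It was higher in MaSC/basal than in LP (log2 4.45, SE 1.58, adjusted p = 0.0338), a call lost without any 1 of the MaSC/basal libraries or LP replicate 1 or 2 (adjusted p up to 0.120), with a log2 difference of 3.73 without LP replicate 2 and 6.38 without LP replicate 3. Against ML it was not called (log2 0.33, adjusted p = 0.813), but it was without ML replicate 3 (log2 3.74, adjusted p = 0.00156) and with the batch as a block (log2 3.63, adjusted p = 1.136e-04). In LP against ML, the block gave an adjusted p of 0.00208 (log2 -3.54), against 0.0793 without it and 0.625 (log2 -0.73) without ML replicate 3. *Dsc1* would not have passed the filter without the MaSC/basal libraries, so calls of it as higher in MaSC/basal are description.

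The remaining spinous genes, with the hallmark keratins, were low in sorted cells except in ML replicate 3. *Krt1* stood at 0.271, 0.0996 and 0.377 CPM in MaSC/basal, 0.317, 0.168 and 0.801 in LP, 1.72, 1.46 and 52.4 in ML, 0.270 in Mammosphere and 0 in Comma D beta. *Krt10*, its partner, stood at 6.24, 6.26 and 4.54 CPM in MaSC/basal, 2.47, 2.58 and 4.43 in LP, 3.42, 3.61 and 92.3 in ML, 6.56 in Mammosphere and 3.84 in Comma D beta. In Mammosphere, *Krt1* lay within the MaSC/basal range, and *Krt10* was just above the highest MaSC/basal library and above every sorted library but ML replicate 3. *Krt1* would not have passed the filter without the ML libraries, where it was high, so its calls against ML are description. It was called lower in MaSC/basal than in ML (log2 -6.18, SE 1.46, adjusted p = 0.00442), a call lost with limma voom as the test (adjusted p = 0.0547). Without ML replicate 3 the difference was -2.65 (adjusted p = 0.00442). It was also lower in LP than in ML (log2 -5.60, SE 1.47, adjusted p = 0.0174), and without ML replicate 3 the difference was -2.05 (adjusted p = 0.0433), but the call was lost without LP replicate 1 or 2 (adjusted p up to 0.132). *Krt10* was also called (log2 -3.40, adjusted p = 0.0439), but the call was lost without ML replicate 3 (log2 -0.18, adjusted p = 0.715), with the block (adjusted p = 0.108) and without each of the MaSC/basal and LP libraries. Without ML replicate 3, *Krt10* was higher in MaSC/basal than in LP (log2 0.86, SE 0.28, adjusted p = 0.0243), which all libraries did not show (adjusted p = 0.509).

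Keratinocyte differentiation associated protein (*Krtdap*) stood at 0.0848, 0.0797 and 0.0942 CPM in MaSC/basal, 0.353, 0.0748 and 0.267 in LP, 0.170, 0.120 and 6.24 in ML, 93.2 in Mammosphere and 1.73 in Comma D beta. Its call between MaSC/basal and ML (log2 -4.46, adjusted p = 0.0243) was lost without each of the MaSC/basal libraries and with the block (log2 -1.53, adjusted p = 0.2496), and without ML replicate 3 the gene did not pass the filter. The desmosomal cadherin *Dsg1a* stood at 0.0509, 0.0199 and 0.188 CPM in MaSC/basal, 0.0353, 0.0187 and 0.267 in LP, 0.254, 0.465 and 17.0 in ML, 27.1 in Mammosphere and 0.102 in Comma D beta. For both genes the Mammosphere library was highest and ML replicate 3 next.

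The scaffold and crosslinking genes were the class with substantial levels in all sorted cells, except for *Ivl*, which reached at most 1.91 CPM there. *Sfn*, encoding the 14-3-3 sigma protein, stood at 2004, 2012 and 2460.2 CPM in MaSC/basal, 654, 969 and 721 in LP, 691, 1011 and 778 in ML, 237 in Mammosphere and 28.3 in Comma D beta. MaSC/basal exceeded LP 2.76-fold (log2 1.47, SE 0.22, adjusted p = 2.45e-04) and ML 2.61-fold (adjusted p = 3.25e-04) without overlap, and both cultured libraries were below every sorted library. Per kilobase of exon, *Sfn* had the highest level of the 36 genes in each sorted population, with 1338 ± 162 RPKM (SD, n = 3) in MaSC/basal cells, while LP had 484 ± 103 and ML 513 ± 102.

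The plakins *Evpl* (envoplakin) and *Ppl* (periplakin) pair in the envelope scaffold and were both luminal. *Evpl* stood at 5.39, 7.27 and 4.76 CPM in MaSC/basal, 36.9, 37.6 and 41.9 in LP, 99.7, 69.7 and 102 in ML, 89.7 in Mammosphere and 10.7 in Comma D beta. The populations were ordered MaSC/basal, LP, ML without overlap, with log2 fold changes of -2.74 (MaSC/basal against LP, SE 0.20, adjusted p = 2.67e-06), -3.96 (MaSC/basal against ML, SE 0.21, adjusted p = 3.72e-07) and -1.22 (LP against ML, SE 0.19, adjusted p = 0.0018). *Ppl* stood at 32.3, 29.2 and 57.9 CPM in MaSC/basal, 199, 236 and 289.8 in LP, 160.1, 239 and 189 in ML, 462 in Mammosphere and 50.5 in Comma D beta. It was 6.08-fold lower in MaSC/basal than in LP (adjusted p = 3.23e-05) and 4.93-fold lower than in ML (adjusted p = 6.13e-05), and LP and ML overlapped.

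Transglutaminase 1 (*Tgm1*), the membrane-bound crosslinking enzyme, stood at 56.1, 42.4 and 64.2 CPM in MaSC/basal, 50.9, 72.5 and 79.2 in LP, 131, 137 and 153 in ML, 32.3 in Mammosphere and 0.408 in Comma D beta. ML libraries were above all others, 2.58-fold above MaSC/basal (adjusted p = 1.90e-04) and 2.07-fold above LP (log2 1.05, SE 0.20, adjusted p = 0.00385), whereas MaSC/basal and LP overlapped. Involucrin (*Ivl*), an early envelope precursor, stood at 1.02, 0.438 and 1.62 CPM in MaSC/basal, 0.0353, 0.0187 and 0.160 in LP, 0.650, 0.173 and 1.91 in ML, 9.15 in Mammosphere and 0.782 in Comma D beta. LP was the low population, 18.4-fold below MaSC/basal (log2 4.20, SE 1.11, adjusted p = 0.0083) and below ML (log2 -3.91, SE 1.139, adjusted p = 0.0264, or 0.0749 without ML replicate 3 and up to 0.112 without LP replicate 1 or 2). With 1 LP library left out, its log2 difference between MaSC/basal and LP ranged from 3.49 (replicate 2) to 5.22 (replicate 3).

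Granular layer genes were mostly near the detection limit in sorted cells. Corneodesmosin (*Cdsn*), an adhesion protein of late desmosomes, stood at 0.288, 0.120 and 0.0753 CPM in MaSC/basal, 0.917, 0.449 and 0.747 in LP, 3.17, 1.49 and 2.91 in ML, 352 in Mammosphere and 3.64 in Comma D beta. Its order was MaSC/basal, LP, ML without overlap, with adjusted p of 0.00887, 5.20e-05 and 0.00822 for MaSC/basal against LP, MaSC/basal against ML and LP against ML. Without MaSC/basal replicate 1 the log2 differences of *Cdsn* were -2.74 from LP and -4.61 from ML, against -2.002 and -3.87 with all libraries. Repetin (*Rptn*), an S100-fused envelope precursor, had 0 reads in the MaSC/basal libraries, 0.881, 0.356 and 0.908 CPM in LP, 10.4, 0.797 and 5.15 in ML, 2.34 in Mammosphere and 0.0340 in Comma D beta. Against a floor of 3 reads over the MaSC/basal group (0.0185 CPM), it was at least 38.7-fold higher in LP (adjusted p = 0.00625) and at least 295-fold higher in ML (adjusted p = 5.21e-04), or at least 161-fold without ML replicate 1 and 421-fold without ML replicate 2. LP and ML overlapped in *Rptn*, and the call between them (log2 -2.98, adjusted p = 0.0342) was lost without each of the LP libraries, ML replicate 1 or ML replicate 3 (adjusted p up to 0.147). Loricrin (*Lor*), the main protein of the mature envelope in skin, ranged from 0.753 to 2.09 CPM in MaSC/basal libraries, with LP at 0.176 to 0.267 and ML at 0.332 to 0.763. It was higher in MaSC/basal than in LP (log2 2.63, SE 0.50, adjusted p = 0.00125) and ML (log2 1.31, SE 0.45, adjusted p = 0.0275, lost without MaSC/basal replicate 1 or 2 or ML replicate 2, up to 0.116), and its levels in Mammosphere (2.07 CPM) and Comma D beta (0.102 CPM) did not exceed the MaSC/basal range.

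The other granular genes had few reads in sorted cells. Filaggrin (*Flg*), the keratin-bundling protein, had 1 read over the MaSC/basal libraries, 0 in LP and 1 in ML (replicate 1), with 0 in Comma D beta, and 287 reads (6.45 CPM) in Mammosphere. Cornifelin (*Cnfn*), an envelope component, stood at 0.339, 0.159 and 0.358 CPM in MaSC/basal, 0.317, 0.281 and 0.107 in LP, 0.170, 0.106 and 0.137 in ML, 101 in Mammosphere and 0 in Comma D beta. Caspase 14 (*Casp14*), the filaggrin-processing protease, stood at 0, 0.0797 and 0.0188 CPM in MaSC/basal, 0, 0 and 0.0534 in LP, 0, 0.0133 and 0.501 in ML, 7.21 in Mammosphere and 1.22 in Comma D beta. Its only call was between MaSC/basal and LP with the batch block (adjusted p = 0.0321, against 0.648 without it), and it rested on 5 and 1 reads. *Tgm3*, the later-acting transglutaminase, and *Alox12b*, a lipoxygenase of the skin barrier, stayed at or below 0.494 and 0.107 CPM in MaSC/basal and LP and reached 2.28 and 0.729 in ML replicate 3, against 0.247 and 0.674 in Mammosphere.

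Most kallikreins and *Spink5* were lower in MaSC/basal than in luminal cells. Of the 7 that were tested, 6 were lower in MaSC/basal than in LP (28.0% of all genes tested were) and 7 lower than in ML (29.7%), whereas LP exceeded ML in 2 (14.3%). *Klk10* stood at 2.14, 0.897 and 2.69 CPM in MaSC/basal, 94.7, 144 and 37.1 in LP, 45.7, 125 and 21.4 in ML, 952 in Mammosphere and 20.7 in Comma D beta. It was 48.1-fold lower in MaSC/basal than in LP (log2 -5.59, SE 0.79, adjusted p = 1.79e-04) and 33.5-fold lower than in ML (log2 -5.07, SE 0.77, adjusted p = 2.74e-04). LP was above ML within each of the 3 batches (94.7 against 45.7, 144 against 125 and 37.1 against 21.4), but the difference was not called (log2 0.52, SE 0.64, adjusted p = 0.565, and 0.223 with the block). *Klk11* stood at 0.322, 0.239 and 1.04 CPM in MaSC/basal, 39.8, 44.7 and 48.8 in LP, 11.8, 24.6 and 15.3 in ML, 27.6 in Mammosphere and 0 in Comma D beta. Here the populations did not overlap, with MaSC/basal 83.1-fold below LP (adjusted p = 4.58e-06), 32.4-fold below ML (adjusted p = 1.40e-05) and LP 2.57-fold above ML (log2 1.36, SE 0.40, adjusted p = 0.0274, lost without LP replicate 2 or 3 or ML replicate 1 or 3, with p up to 0.0971). Without MaSC/basal replicate 3, the highest of its group, the log2 differences of *Klk11* were -7.26 from LP and -5.91 from ML.

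*Klk6* and *Klk8*, also known from the nervous system, were at lower luminal levels. *Klk6* stood at 0.763, 0.0199 and 0.0942 CPM in MaSC/basal, 4.48, 8.46 and 3.52 in LP, 1.87, 4.18 and 1.37 in ML, 1454 in Mammosphere and 12.2 in Comma D beta. *Klk8* stood at 0.288, 0.159 and 0.452 CPM in MaSC/basal, 3.67, 7.88 and 1.87 in LP, 2.04, 5.95 and 1.37 in ML, 145 in Mammosphere and 9.14 in Comma D beta. Each was lower in MaSC/basal than in LP (log2 -4.18 and -3.92, adjusted p = 0.00108 and 9.06e-04) and ML (log2 -3.07 and -3.42, adjusted p = 0.00651 and 0.00192), and neither was called between LP and ML. For *Klk6* the MaSC/basal level lay mostly in replicate 1 (45 of 51 reads), and without it the differences were -6.51 and -5.40. Without the batch 2 luminal library, *Klk8* differed by -3.23 from LP and -2.51 from ML, *Klk6* by -2.41 from ML and *Klk10* by -4.14 from ML. In LP and in ML, *Klk6*, *Klk8* and *Klk10* were each highest in the batch 2 library and lowest in the batch 3 library. Counted reads had the same order, with 60517657, 32863052 and 19958838 in LP and 75795034, 35335491 and 21311068 in ML for batches 2, 1 and 3, and the part of batch or depth was not tested.

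*Klk7* and *Klk14*, with *Klk5* the kallikreins of shedding in skin, were minor in sorted cells. *Klk7* stood at 0.797, 0.0598 and 0.207 CPM in MaSC/basal, 1.13, 0.879 and 1.33 in LP, 1.89, 0.943 and 3.42 in ML, 1454 in Mammosphere and 0.0340 in Comma D beta. It was lower in MaSC/basal than in ML (log2 -2.40, SE 0.66, adjusted p = 0.0102, or -3.82 without MaSC/basal replicate 1), while against LP the adjusted p was 0.0849, or 0.0447 with the block (log2 -1.34). *Klk14* stood at 0.0678, 0.139 and 0.0565 CPM in MaSC/basal, 2.22, 2.19 and 0.694 in LP, 0.622, 0.877 and 0.182 in ML, 96.1 in Mammosphere and 0.714 in Comma D beta. It was lower in MaSC/basal than in LP (log2 -4.30, adjusted p = 1.93e-04) and ML (log2 -2.79, adjusted p = 0.00397), and higher in LP than in ML (log2 1.51, SE 0.49, adjusted p = 0.0400), a call lost without any 1 of 6 libraries (MaSC/basal replicates 1 and 3, LP replicates 1 and 2 and ML replicates 1 and 3, adjusted p up to 0.125). *Klk5* had 0 reads in MaSC/basal and LP, 0.0565, 0.0133 and 0.182 CPM in ML, 8.47 in Mammosphere and 0.0680 in Comma D beta. *Klk13* stood at 0.0339, 0 and 0.0377 CPM in MaSC/basal, 0.247, 0.430 and 0.0534 in LP, 0.283, 0.279 and 0.0911 in ML, 79.2 in Mammosphere and 0 in Comma D beta.

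The inhibitor gene *Spink5* was luminal like the proteases. It stood at 0.882, 0.199 and 0.264 CPM in MaSC/basal, 3.31, 2.68 and 4.54 in LP, 1.98, 2.76 and 4.33 in ML, 1174 in Mammosphere and 0.782 in Comma D beta. MaSC/basal was 7.45-fold below LP (adjusted p = 5.70e-04) and 6.41-fold below ML (adjusted p = 8.39e-04), and LP and ML overlapped. Without MaSC/basal replicate 1 the log2 differences were -3.86 and -3.65, against -2.90 and -2.68 with all libraries. *Klk8* and *Klk14* share 369 and 287 exon bases with a gene on the other strand (2310002F09Rik), and the kit does not mark strand, so reads there cannot be assigned to one or the other. The same holds for *Tgm1* (182 bases, Gm49067) and *Krt10* (146, Gm11940). *Sbsn* (279, Tmem147os) and *Rptn* (45, Gm37857) share exon bases with a gene on their own strand.

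**Figure D2:**
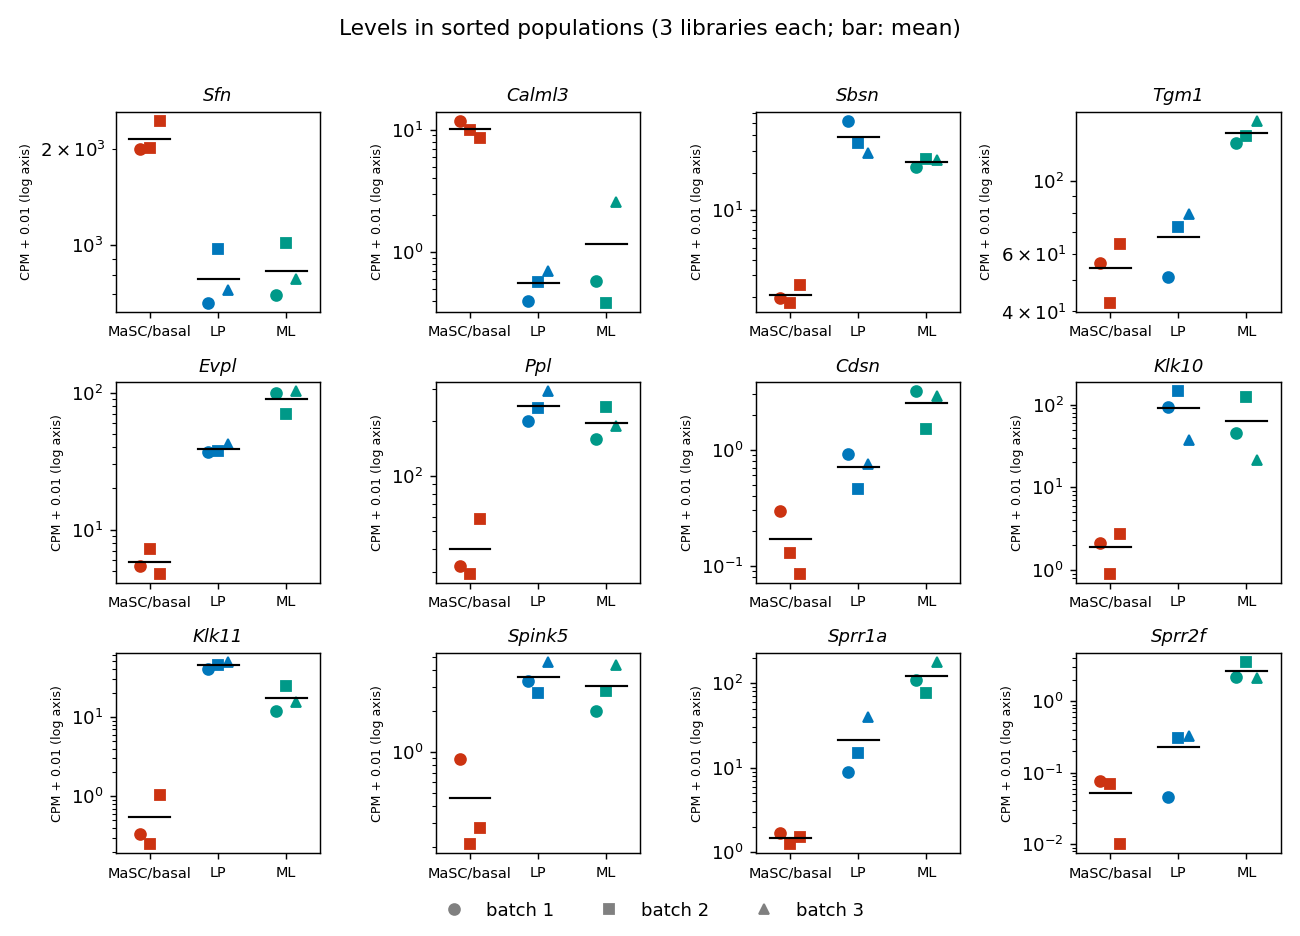
CPM (plus 0.01, log axis) of 12 of the genes in each library of the sorted populations, with the marker giving the batch and the bar the mean of 3 libraries. *Sfn* and *Calml3* are highest in MaSC/basal, *Sbsn*, *Ppl*, *Klk10*, *Klk11* and *Spink5* are high in both luminal populations, and *Tgm1*, *Evpl*, *Cdsn*, *Sprr1a* and *Sprr2f* are highest in ML.

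Among SPRR genes, *Sprr1a* was the main one and was graded across the populations. It stood at 1.66, 1.24 and 1.53 CPM in MaSC/basal, 8.99, 14.8 and 39.6 in LP, 108, 76.4 and 177 in ML, 449 in Mammosphere and 1.56 in Comma D beta. The 3 populations did not overlap, with log2 fold changes of -3.82 (MaSC/basal against LP, SE 0.55, adjusted p = 2.05e-04), -6.34 (MaSC/basal against ML, SE 0.60, adjusted p = 1.10e-05) and -2.52 (LP against ML, SE 0.50, adjusted p = 0.00503). In each batch ML was above LP, at 108 against 8.99, 76.4 against 14.8 and 177 against 39.6 CPM. Without LP replicate 3, the highest LP library, the log2 differences were -3.02 (MaSC/basal against LP) and -3.31 (LP against ML). *Sprr2f* showed the same order at a low level, from 0 to 0.0678 CPM in MaSC/basal libraries, with LP at 0.0353 to 0.320 and ML at 2.14 to 3.52. It was lower in MaSC/basal than in ML (log2 -5.84, SE 0.73, adjusted p = 7.35e-05) and in LP than in ML (log2 -3.56, SE 0.64, adjusted p = 0.0032), and its call between MaSC/basal and LP (adjusted p = 0.0395) was lost with the block (adjusted p = 0.0542) and without any 1 of the MaSC/basal libraries, LP replicate 2 or LP replicate 3 (up to 0.183). *Sprr2f* passed the filter only through the 3 ML libraries, where it was high, so its calls against ML are description. Without any 1 ML library it did not pass and was not tested. Unlike *Sprr1a*, it had 3 reads in Mammosphere and 0 in Comma D beta. *Sprr1b* stood at 0.187, 0 and 0.0377 CPM in MaSC/basal, 0.0705, 0.0561 and 0.0534 in LP, 0.170, 0.0133 and 1.41 in ML, 56.9 in Mammosphere and 1.19 in Comma D beta. *Sprr2d*, *Sprr2h* and *Sprr3* had 0, 1 and 0 reads over the MaSC/basal libraries, 0 in LP, 1, 11 and 0 in ML, and 4, 125 and 6 in Mammosphere. Reads of these near copies can be split or lost between genes, so single *Sprr2* values are uncertain.

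The Mammosphere library, compared with the mean of its MaSC/basal source population, has no replicate and carries no p-value. A fold of 4 was used on log2 CPM with a prior count of 2, among the 16816 genes that exceeded 0.5 CPM in at least 1 library, which included 34 of the 36. Of these, 25 were over 4-fold higher in Mammosphere (10.3% of the 16816 genes were), 1 was over 4-fold lower (8.34%) and 8 were within 4-fold, with a median log2 difference of 6.79 (6.97 with *Rptn* and *Klk5*, at 0 in MaSC/basal, at their lower bounds, and 0.02 over all genes). Over 4-fold above the highest sorted library were 18 (3.41%), or 21 without ML replicate 3. By class, the counts of higher genes were 4 of 8 spinous, 3 of 5 scaffold, 6 of 8 granular, 9 of 9 kallikrein and inhibitor genes and 3 of 4 SPRR genes. As the Mammosphere level was known when the genes were chosen, these counts describe the list and test nothing.

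Kallikreins and *Spink5* stood highest. Relative to MaSC/basal, *Klk6* was 4974-fold, *Klk7* 4101-fold, *Klk13* 3320-fold, *Spink5* 2619-fold and *Klk14* 1093-fold higher, and *Klk10*, *Klk8* and *Klk11* were 499-fold, 484-fold and 51.8-fold higher. *Klk5*, at 0 in MaSC/basal, was at least 458-fold higher. Of the 9, *Klk11* was the exception that stayed below the highest sorted library, at 0.565 of it. These ratios rest on few MaSC/basal reads (51 for *Klk6*, 61 for *Klk7*, 4 for *Klk13*, 76 for *Spink5*), and of those reads 45, 47 and 52 of *Klk6*, *Klk7* and *Spink5* came from replicate 1, the MaSC/basal library of the Mammosphere batch. Without that library the folds were 25495 for *Klk6*, 10896 for *Klk7* and 5072 for *Spink5*, and without replicate 3 that of *Klk11* was 98.3 and without replicate 2 that of *Klk13* was 2213. Carry-over between libraries of that batch was not tested. Per kilobase of exon the order in Mammosphere was *Klk6* (1031 RPKM), *Klk7* (833), *Klk10* (703), *Sprr1a* (568), *Spink5* (246) and *Krtdap* (204).

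Along the chromosome the high levels were bounded. Of 27 kallikrein genes on chromosome 7, the 10 from *Klk14* to *Klk5* were detected in Mammosphere, from 0.742 CPM (*Klk12*) to 1454 CPM, whereas *Klk4* next to *Klk5* stood at 0.0225 CPM, *Klk15* at 0, and 15 genes of the *Klk1* and *Klk1b* group at no more than 0.247 CPM. *Klk9* and *Klk12*, which lie between the listed genes but were not on the list, stood at 14.9 and 0.742 CPM in Mammosphere. *Klk9* was higher in luminal libraries (1.139 to 4.40 CPM) than in MaSC/basal ones (0.0509 to 0.264), with adjusted p = 2.35e-04 for LP and 4.66e-04 for ML.

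**Figure D3:**
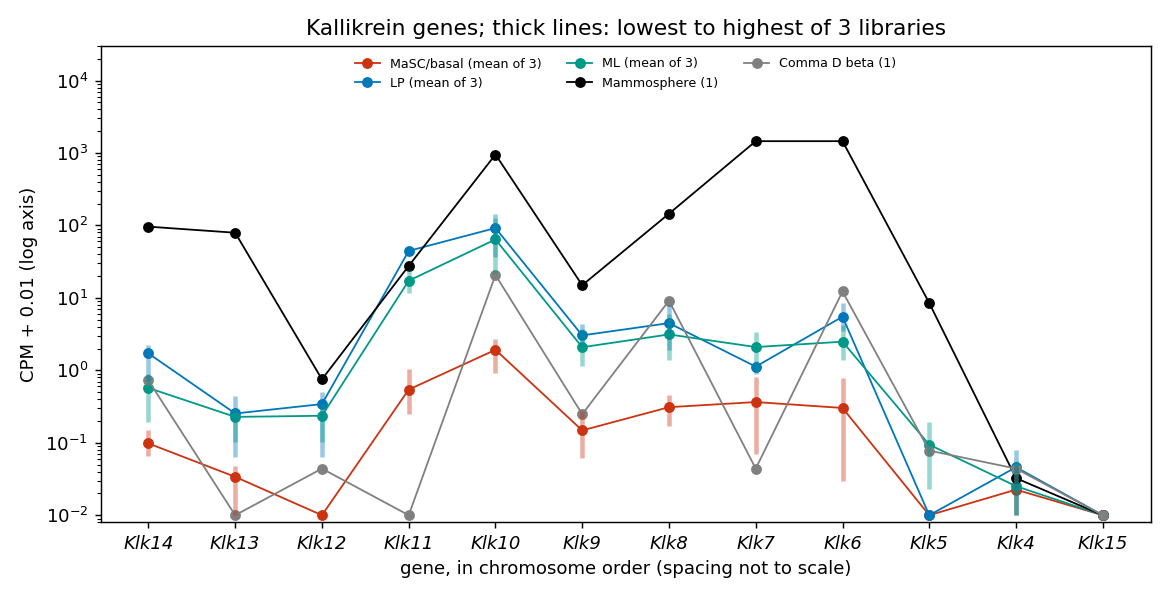
CPM (plus 0.01, log axis) of 12 kallikrein genes in chromosome order, as the mean of 3 libraries for sorted populations, with thick lines from the lowest to the highest library, and as single values for Mammosphere and Comma D beta. The Mammosphere line lies above the others except at *Klk11* and at *Klk4* and *Klk15*, where all are near 0, and the MaSC/basal line lies below LP and ML from *Klk14* to *Klk6*.

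Granular genes in Mammosphere differed widely in their fold over MaSC/basal. Relative to MaSC/basal, *Cdsn* was 2184-fold, *Cnfn* 355-fold and *Casp14* 220-fold higher (the last against 5 reads), and *Rptn* at least 126-fold higher, although *Rptn* stayed below ML replicates 1 and 3. For *Flg* the ratio was 1046 (95% exact interval 186 to 41473, counting error only), against 1 MaSC/basal read. *Alox12b* was 21.9-fold higher on 30 reads against 5. Without MaSC/basal replicate 1 *Cdsn* was 3609-fold higher, without replicate 2 *Casp14* 766-fold, and without replicate 3 *Alox12b* 79.5-fold, while *Flg* then had 0 MaSC/basal reads. *Lor* and *Tgm3* were within 4-fold, with *Lor* at 92 and *Tgm3* at 11 reads. Per kilobase of exon, *Cnfn* (140.3 RPKM) and *Cdsn* (131 RPKM) were above *Casp14* (3.09), *Lor* (1.16) and *Flg* (0.767). *Lor*, within 4-fold of MaSC/basal, was above *Flg* on this measure but below it in CPM (2.07 against 6.45).

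The spinous class was also split in Mammosphere. *Krtdap* was 1081-fold, *Dsg1a* 313-fold, *Sbsn* 194-fold and *Dmkn* 142-fold higher than in MaSC/basal, whereas *Krt1* (1.08-fold), *Krt10* (1.16-fold), *Calml3* (3.78-fold) and *Dsc1* (3.99-fold) were within 4-fold. *Dsg1a*, with 14 MaSC/basal reads, was 765-fold higher without replicate 3, which held 10 of them, and 1.59-fold above ML replicate 3, the highest sorted library. In the scaffold class, *Evpl* (15.4-fold), *Ppl* (11.6-fold) and *Ivl* (8.92-fold) were higher, *Tgm1* was within 4-fold (0.596-fold) and *Sfn* was 9.11-fold lower. *Evpl* in Mammosphere lay within the ML range, and *Ppl* was 1.59-fold above the highest LP library. Of the SPRR genes, *Sprr1a* was 304-fold and *Sprr1b* 761-fold higher, the latter against 13 MaSC/basal reads of which 11 were in replicate 1 (3019-fold without that library), and *Sprr2h* had a ratio of 456 (95% exact interval 80.3 to 18143) against 1 MaSC/basal read. *Sprr1a* was 2.54-fold above the highest ML library, and *Sprr2f* was 0.0191 of it.

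**Figure D4:**
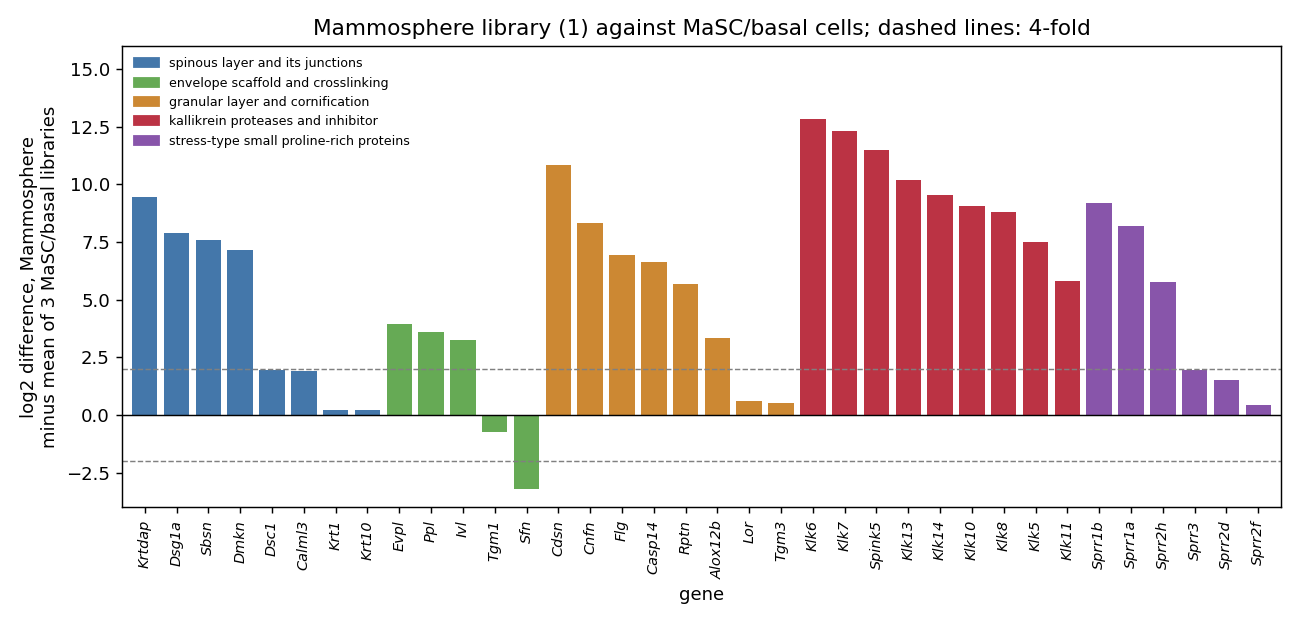
Log2 difference in level between the Mammosphere library and the mean of 3 MaSC/basal libraries for each of the 36 genes, grouped and coloured by class, with dashed lines at 4-fold. All kallikrein bars exceed the upper line and *Sfn* alone is beyond the lower one, while *Krt1*, *Krt10*, *Lor* and *Tgm3* lie close to 0.

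Markers of other cells moved in the Mammosphere library as well. Relative to the MaSC/basal libraries, the sum of 6 basal and myoepithelial genes was lower (3429 against 15877 to 22237 CPM), with *Krt5* and *Krt14* still at 1009 and 2019 CPM. Sums were higher for 10 luminal genes (3490 against 1474 to 1758 CPM), 6 fibroblast genes (2402 against 582 to 863), 7 immune genes (30.7 against 9.55 to 12.9) and 6 skeletal muscle genes (66.1 against 1.39 to 1.95, with 5 of 6 over 4-fold higher), and lower for 5 endothelial genes (11.7 against 43.2 to 89.3). Of the luminal genes, 4 were over 4-fold higher, 5 within 4-fold and 1 over 4-fold lower (*Esr1*, 4.21-fold), and *Pgr* was 3.02-fold lower. Of the fibroblast genes, 3 were over 4-fold higher and 3 within 4-fold, with *Dcn* 1.92-fold lower. The immune genes went both ways, with the macrophage gene *Cd68* giving 23.5 of the 30.7 CPM (4.23-fold higher) and *Ptprc*, *Cd3e* and *Cd79a* 3.78-fold, 4.53-fold and 14.4-fold lower on 12, 2 and 3 Mammosphere reads. The 14 hair follicle and sebaceous genes summed to 361 against 404 to 480 CPM, but the lipid genes *Fasn* (1.15-fold lower) and *Soat1* (1.53-fold lower) gave most of this sum. Of the 12 detected, 5 were over 4-fold lower, 7 within 4-fold and 0 over 4-fold higher. *Krt71* and *Krt73* were 35.9-fold and 41.0-fold lower on 7 and 3 Mammosphere reads, and the hair keratins *Krt25*, *Krt27* and *Krt28* had 0 reads. The part of these shifts in the epidermal genes was not tested.

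ML replicate 3 differed from the other ML libraries in a subset of the genes that overlapped in part with those higher in Mammosphere. Over 4-fold above both were 11 of 34 genes (0.898% of 16816 genes were), namely *Krt1*, *Krt10*, *Krtdap*, *Dsg1a*, *Dsc1* and *Calml3* of the spinous class (6 of 8), *Tgm3*, *Casp14* and *Alox12b* of the granular class (3 of 8) and *Sprr1b* and *Sprr2h* of the SPRR class, with none of the scaffold or kallikrein genes. The excess over the higher of the other 2 libraries was 36.8-fold for *Krtdap*, 36.5-fold for *Dsg1a*, 33.3-fold for *Dsc1*, 30.4-fold for *Krt1*, 25.5-fold for *Krt10* and 4.51-fold for *Calml3*. *Sbsn*, *Dmkn*, *Cdsn* and *Evpl* did not differ in this way, at 0.982, 0.917, 0.921 and 1.02 of the higher library.

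Some other skin and basal genes, named after their values were seen, were high in the same library. Over 4-fold above both other ML libraries were 3 of 6 basal and myoepithelial genes (0.898% of 16816 genes were). Of the lists read below, so were 4 of 26 other epidermal differentiation complex genes and 4 of 18 barrier lipid genes. The same was true of 0 of 13 protease regulators, 1 of 11 stratification keratins and 3 of 15 transglutaminases and desmosomal partners. Of 20 transcription factors it was true of 1, *Trp63*, which is also on the basal list. *Krt5* stood at 141 CPM against 13.2 and 14.6, *Krt14* at 110.0 against 23.1 and 27.2, *Trp63* at 24.8 against 2.18 and 1.89, *Dsg3* at 16.6 against 0.481 and 0.478, and *Dsc3* at 41.4 against 1.10 and 1.196. The hair keratins *Krt25*, *Krt27*, *Krt28* and *Krt71* stood at 23.1, 7.29, 10.1 and 25.7 CPM, against at most 0.917, 0.292, 0.412 and 0.917 in the other ML libraries, and of the hair follicle and sebaceous genes 6 of the 12 detected were over 4-fold higher. The myoepithelial genes on the list were within 4-fold of the higher of the other ML libraries, with *Myh11* at 37.3 CPM against 8.43 and 13.1 (2.85-fold), *Acta2* at 36.2 against 12.4 and 27.8 (1.30-fold) and *Cnn1* at 3.64 against 1.78 and 3.43 (1.06-fold). Their part in the epidermal values of ML replicate 3 was not tested. The subsets of ML replicate 3 and Mammosphere overlapped in part. *Krtdap*, *Dsg1a*, *Casp14*, *Alox12b*, *Sprr1b* and *Sprr2h* were over 4-fold higher in both, against the other ML libraries and against MaSC/basal. *Krt1*, *Krt10*, *Dsc1*, *Calml3* and *Tgm3* passed 4-fold in ML replicate 3 and not in Mammosphere, and the kallikreins the reverse.

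**Figure D5:**
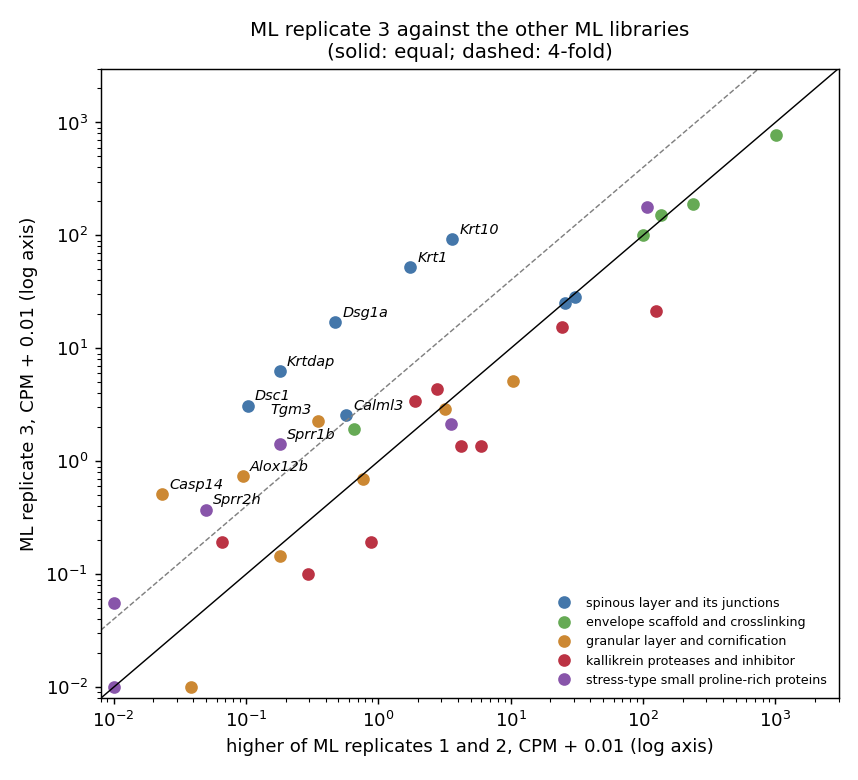
CPM (plus 0.01, log axes) of the 36 genes in ML replicate 3 against the higher of ML replicates 1 and 2, coloured by class, with a solid line at equality and a dashed line at 4-fold. The 11 named genes are those over 4-fold higher on log2 CPM with a prior count of 2. Spinous genes such as *Krt1* and *Krt10* lie far above the line, and kallikrein genes (red) lie around or below equality.

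In Comma D beta, 8 of 34 genes were over 4-fold higher than in MaSC/basal (6.54% of 16816 genes were) and 8 over 4-fold lower (14.6%), with a median log2 difference of -0.04 that changed sign with the scaling. Of the higher genes, 4 of 8 were kallikreins, with *Klk10* at 20.7, *Klk6* at 12.2 and *Klk8* at 9.14 CPM. *Tgm1*, *Calml3* and *Sfn* were among the lower genes, at log2 differences of -6.88, -6.96 and -6.24. The scaffold class had the highest sum (90.7 CPM), and the sum for all 36 genes was below that of every other library. The basal and myoepithelial sum was 1514 CPM and the luminal sum 246 CPM in this line.

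Related genes from lists drawn up with earlier results known were read in the same fit. Counts are read against all genes tested, of which 29.4%, 28.9% and 14.3% were higher and 28.0%, 29.7% and 17.5% lower in MaSC/basal against LP, MaSC/basal against ML and LP against ML, and against the 10.3% over 4-fold higher in Mammosphere. Among 38 other genes of the epidermal differentiation complex, 8 were tested and 2, 1 and 0 were higher and 2, 2 and 4 lower in these comparisons, so that in MaSC/basal against LP neither direction was above its background share. *Prr9* was higher in MaSC/basal than in LP (log2 5.92, adjusted p = 8.22e-04) and *Sprr2a3*, at 15.6, 5.33 and 5.42 CPM in ML, was lower in MaSC/basal than in ML (log2 -6.42, adjusted p = 1.04e-05). *Prr9* would not have passed the filter without the MaSC/basal libraries, so its call is description. In Mammosphere, 19 of the 26 detected in any library were over 4-fold higher than in MaSC/basal, with *Kprp* (39.2 CPM), *Pglyrp3* (24.4 CPM) and *Lce1a1* (14.99 CPM) each at or below 0.226 CPM in the sorted libraries, and *S100a14* at 196 CPM and *S100a16* at 134 CPM within 4-fold.

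Among 18 other kallikreins and protease regulators, 10 were tested, with 3 higher (29.4% and 28.9% of all genes) and 6 lower (28.0% and 29.7%) in MaSC/basal against LP and against ML, and 0 higher (14.3%) and 2 lower (17.5%) in LP against ML. *Prss8*, a membrane protease, was 15.8-fold lower in MaSC/basal than in LP (adjusted p = 7.02e-06) and *St14* (matriptase) ranged from 616 to 877 CPM in luminal cells against 114 to 150 in MaSC/basal. In Mammosphere, 8 of 13 were over 4-fold higher (10.3% of all genes were). By level the highest were the protease inhibitor *Cst6* at 5816 CPM (0.151 to 5.10 in sorted libraries), the lysosomal protease *Ctsd* at 2600.5 CPM (7.19-fold over MaSC/basal) and the filaggrin protease *Asprv1* at 1396 CPM (293-fold, 1.31 to 5.32 in sorted libraries). *Spink12* (26.1 CPM) and *Tmprss11f* (15.3 CPM), named after their values were seen, were lower in level but 1541-fold (against 3 MaSC/basal reads) and at least 828-fold higher. *Cst6* stood at 2.39, 2.89 and 3.05 CPM in the sorted libraries of batch 1, the batch of the Mammosphere library, at 0.151 to 0.299 in those of batch 2, and at 0.320 (LP) and 5.10 (ML) in batch 3.

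Of 18 barrier lipid genes, 15 were tested, with 3, 2 and 1 higher and 7, 11 and 5 lower in the 3 comparisons in the same order. *Elovl4* and *Nipal4*, of very long chain lipid synthesis and ichthyosis, were MaSC/basal genes (log2 5.73 and 5.64 against LP, adjusted p = 3.48e-05 and 2.81e-05), and 8 of 18 were over 4-fold higher in Mammosphere, with *Elovl4* at 298 CPM. Of 16 other transglutaminases and desmosomal partners, 13 were tested, with 7, 5 and 1 higher and 4, 5 and 8 lower. *Tgm2* was highest in ML (5279.7, 2574 and 2571 CPM, log2 -2.13 for LP against ML, adjusted p = 0.00112), and 3 of 15 were over 4-fold higher in Mammosphere, among them *Dsg3* at 237 CPM.

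Of 12 stratification keratins, 11 were tested, with 3, 2 and 0 higher and 6, 6 and 7 lower. *Krt17* was MaSC/basal (log2 7.07 against LP, adjusted p = 5.32e-06), and *Krt6a*, an injury keratin, stood at 42.6 to 50.6 CPM in MaSC/basal, 63.6 to 155 in LP, 409.9 to 449.9 in ML and 1168 in Mammosphere. In Mammosphere, 5 of 11 were over 4-fold higher, with *Krt6b* at 234 CPM and *Krt80* at 303 CPM. All 20 transcription factors of epidermal differentiation were tested, with 5, 8 and 8 higher (29.4%, 28.9% and 14.3% of all genes) and 7, 8 and 1 lower (28.0%, 29.7% and 17.5%). *Trp63*, the master regulator of stratified epithelia, was higher in MaSC/basal than in LP (log2 6.62, adjusted p = 3.07e-04), and *Zfp750*, which acts late in keratinocytes, was lower (log2 -5.27, adjusted p = 5.64e-07). In Mammosphere 4 of 20 were over 4-fold higher and 2 lower, with *Klf4* 4.90-fold below MaSC/basal at 128 CPM.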

How the data were processed

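RNA-seq data of 11 libraries were used. Rsubread served the authors for alignment of 100-base reads to the mm10 genome, and featureCounts for raw counts of 27179 Entrez genes, which they deposited for each library beside the exon length. No scaling or filter was applied to the deposited counts, and how reads shared by genes were treated is not given in the sources used here. Symbols and positions came from a RefSeq table (GRCm38.p6), which named 25275 genes.

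The edgeR 4.0.16 package in R 4.3.3 was used (quasi-likelihood test, TMM scaling, over 0.5 CPM in at least 3 libraries, 5 sample type means, all 11 libraries), with Benjamini-Hochberg adjustment over 15422 genes at 0.05. SE is the log2 fold change divided by the square root of F. Mammosphere and Comma D beta were described without a test at 4-fold. The members and gene lists were chosen with earlier results of these data known. Members with a mean of at least 5 CPM in a sorted population, or that level in a cultured library, were given in every library. Of each other list, counts and at most 4 of the highest genes with 2 called genes per comparison were named. *Klk9*, *Klk12*, *Klk4*, *Klk15*, *Lce1a1*, *Spink12*, *Tmprss11f* and the genes named for ML replicate 3 were chosen after their values were seen. The script was tested on simulated data.

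Alternatives were DESeq2 size factors, no TMM, other filters, limma voom 3.58.1, the DESeq2 1.42.0 Wald test, sorted libraries alone, batch as a block, prior count 0.5, CPM cutoffs of 0.25 and 1, and each sorted library left out. Those for counts past 4-fold were chosen after seeing the data. The labels give the batch, so the block pairs libraries by design. Correlations of deviations from group means were -0.118 to 0.526 within batches (9 pairs) and -0.419 to 0.115 between them (18 pairs). The smallest library had 19958838 reads, so 0.5 CPM was 9.37 reads, and floors and intervals cover counting error only.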

Additional observations from a re-analysis of the deposited data

How the results depend on the processing

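Of 110 values over the whole gene list under these alternatives, 102 kept their direction and stayed within 1.5 times (counts) or 1 SD (medians, SD 0.337 between MaSC/basal libraries). Members called between LP and ML were 7 with limma voom in place of 12, and 5 to 14 when 1 sorted library was left out, with 6 without LP replicate 1, 6 without LP replicate 2 and 5 without ML replicate 3. The corresponding ranges were 17 to 19 for MaSC/basal against LP (main value 19) and 19 to 21 for MaSC/basal against ML (21). The median difference of the Mammosphere library was 7.63 with a prior count of 0.5. That of Comma D beta (-0.04) was 0.226 without TMM scaling, 0.0315 without MaSC/basal replicate 1 and 0.163 without MaSC/basal replicate 3, over a range of -0.135 to 0.163 with 1 MaSC/basal library left out. The cause of these shifts was not tested. Members over 4-fold above MaSC/basal in Mammosphere were 25 to 27, and above the highest sorted library 18 to 21. Leaving out 1 MaSC/basal library, chosen after seeing the data, moved the Mammosphere fold of 13 of the 32 members with MaSC/basal reads by over 1.5 times.

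Of 870 values for single called genes, 807 stayed called in the same direction, 63 were no longer called and 0 reversed. Calls that an alternative gave no value for are not counted among them. Of the 52 calls, 49, 49 and 48 had a value without ML replicates 1, 2 and 3. With the DESeq2 Wald test 49 had a value, and with sorted libraries alone 51. With limma voom, 8 of the 52 were no longer called. These were *Sprr2f* (MaSC/basal against LP), *Krt1* and *Krtdap* (MaSC/basal against ML), and *Krt1*, *Krt10*, *Ivl*, *Rptn* and *Klk14* (LP against ML). With the batch as a replicate block, calls numbered 20, 21 and 11 for MaSC/basal against LP, MaSC/basal against ML and LP against ML. The block removed *Sprr2f*, *Krtdap*, *Krt10* and *Sbsn* and added *Casp14*, *Klk7* and *Dsc1*, as given with each gene, and it changed no other call. *Dsc1* between MaSC/basal and LP was lost without each of 5 libraries (adjusted p up to 0.120), and *Lor* between MaSC/basal and ML without MaSC/basal replicate 1 or 2 or ML replicate 2 (up to 0.116). At these depths genes with under 10 reads, such as *Sprr2d* and *Sprr3*, cannot be ranked.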
